A study of Homo sapiens with 12 samples.

Results

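The light-strand transcript of the human mitochondrial genome was examined for stretches shielded by protein in HEK293T, an established line of human embryonic kidney cells. Its members were all sites listed on the minus strand of chrM in 6 lists of protein-protected sites, without any choice by score or length. They numbered 493 of 513381 sites in all lists together, 226 of them in lists of ssRNase (3 lists) and 267 in those of dsRNase (3 lists). The assay was protein interaction profile sequencing, in which a ribonuclease digests the lysate of cross-linked cells and the RNA under bound protein survives to be sequenced. All 12 libraries came from cells fixed with 1% formaldehyde, and they form 4 groups of 3. In the ssRNase footprint group the lysate was digested with RNase ONE, an enzyme for single-stranded RNA, and in the dsRNase footprint group with RNase V1, an enzyme for paired RNA, each with protein still bound. The ssRNase and dsRNase digestion controls received the same nuclease after SDS and proteinase K had removed the protein. Each list sets 1 footprint library against its own digestion control, which is meant to account for stretches that resist the nuclease by structure alone. The lists hold no read counts, so the depth behind a site is unknown, and their lengths ran from 57481 to 209922 sites with ssRNase and from 21561 to 28413 with dsRNase. Whether the replicates are separate cultures is not said in the labels, and p-values reflect only the spread between these libraries, possibly technical.

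The 2 strands of mitochondrial DNA are each transcribed as one long RNA. The light-strand promoter lies in the control region, and its transcript, which carries the sequence of the minus strand of the reference, holds a single messenger RNA, that of ND6, a subunit of respiratory complex I, together with 8 transfer RNAs. Most of the rest is antisense to the messenger and ribosomal RNAs of the other transcript, and this antisense RNA is known to be degraded quickly in human mitochondria. Transfer RNAs are cut out of both transcripts by RNase P and RNase Z, which frees the RNAs that lie between them. Lists of this kind come from bulk lysate, in which fewer cells and less RNA per cell cannot be told apart. All site positions are hg19 minus-strand positions as deposited by the authors. Genes were placed on them by the numbering of GENCODE release 29, which belongs to a later build, and mitochondrial numbering under the name hg19 may differ from it by up to 2 nt.

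The sequences below are the tRNAs, antisense tRNAs and ND6 start that the results turn on. They are given 5′ to 3′ as the light-strand transcript reads, with T for U, from the GENCODE release 29 transcripts. Capitals mark the anticodon in a tRNA, the complement of the anticodon in the antisense of a tRNA, and the start codon in ND6. The dsRNase sites of all 3 lists reached into MT-TE and MT-TY, the tRNAs for glutamate and tyrosine. MT-TC, MT-TN and MT-TA, the tRNAs for cysteine, asparagine and alanine, follow MT-TY and held no base of a site with either nuclease, and are shown as its uncovered neighbours. The start codon of ND6 lay in sites of all 3 dsRNase lists and of ssRNase replicate 1, each over only part of the bases printed. The ssRNase replicate 2 site, 14625 to 14671, reached only the last base of that codon, within the 2 nt of doubt in the numbering. The antisense of MT-TK and of MT-TS2, heavy-strand tRNAs for lysine and serine, lay wholly inside a site in all 3 ssRNase lists.
MT-TE: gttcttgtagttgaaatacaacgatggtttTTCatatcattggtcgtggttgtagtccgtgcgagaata
MT-ND6 first bases: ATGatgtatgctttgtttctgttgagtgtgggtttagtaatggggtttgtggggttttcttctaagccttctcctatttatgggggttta
MT-TY: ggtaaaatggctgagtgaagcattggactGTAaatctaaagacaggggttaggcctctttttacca
MT-TC: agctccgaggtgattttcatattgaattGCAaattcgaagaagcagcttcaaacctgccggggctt
MT-TN: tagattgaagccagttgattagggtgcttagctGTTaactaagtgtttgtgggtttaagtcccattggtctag
MT-TA: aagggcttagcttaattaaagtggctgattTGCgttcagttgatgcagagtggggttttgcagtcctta
opposite MT-TK: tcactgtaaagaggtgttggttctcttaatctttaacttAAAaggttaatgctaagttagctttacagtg
opposite MT-TS2: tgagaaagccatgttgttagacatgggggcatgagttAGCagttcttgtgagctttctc

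The number of light-strand bases in sites did not separate the 2 nucleases, while their share of the list did. There were 102, 57 and 67 light-strand sites with ssRNase, against 81, 90 and 96 with dsRNase. These sites covered 7523, 2545 and 3267 bases with ssRNase, against 3202, 3984 and 3657 bases with dsRNase. The ssRNase replicate 1 list stood far above its 2 replicates, while the dsRNase lists were close to each other, and the groups overlapped (two-sided exact permutation p = 0.9 for bases and 0.4 for sites). Without ssRNase replicate 1 the means were 2906 bases with ssRNase and 3614 with dsRNase, which turned the order round. As a share of all site bases of its list the light strand made up 0.0671% ± 0.0242 with ssRNase, against 0.418% ± 0.0357 with dsRNase (SD, n = 3 each). These shares did not overlap (two-sided exact permutation p = 0.1); with 3 lists against 3 no smaller p exists, so that no such test here could pass 0.05. The median light-strand site was 55.5, 41.0 and 41.0 nt long with ssRNase, against 34.0, 36.0 and 37.0 nt with dsRNase. The lists differed in the same direction outside the mitochondrial genome, where the median was 43.0 ± 1.0 nt with ssRNase, against 33.3 ± 0.577 nt with dsRNase (SD, n = 3 each).

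**Figure D1:**
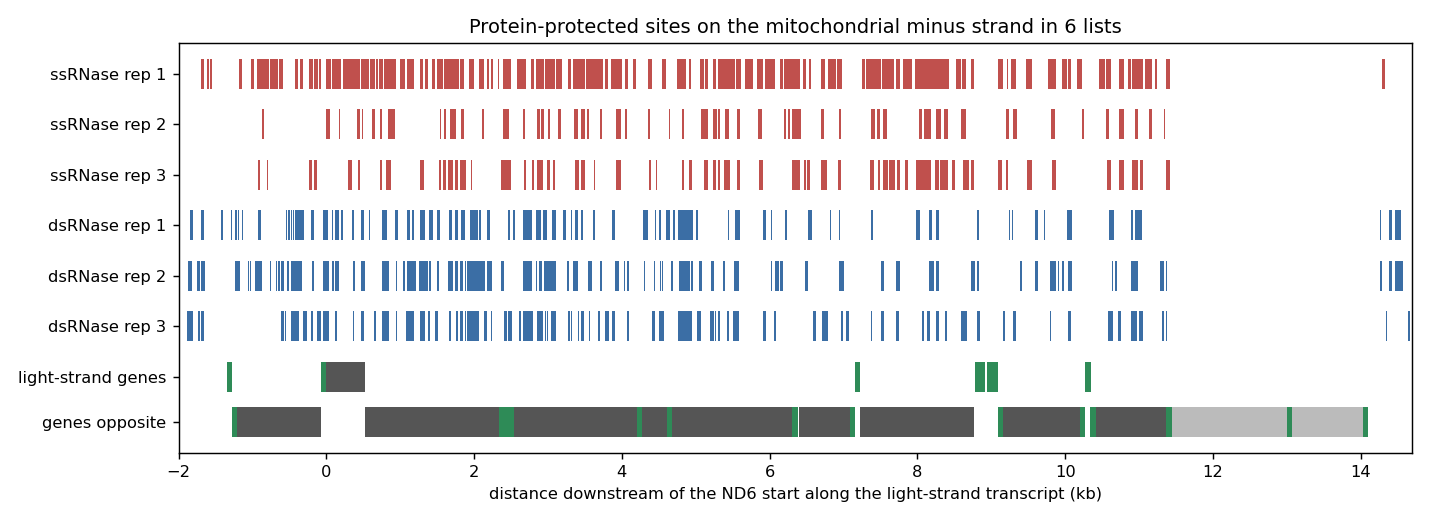
Every minus-strand mitochondrial site in each list (bars; ssRNase red, dsRNase blue), drawn against the distance downstream of the ND6 start along the light-strand transcript (x axis, kb), over light-strand genes and the genes opposite (tRNA green, mRNA dark grey, rRNA light grey). All 6 lists are empty opposite the rRNAs, and the sites at the far right belong to the control region, which adjoins the left end in the circular genome.

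ND6, the only light-strand messenger RNA, was protected with both nucleases. Sites covered 90.9%, 22.9% and 18.5% of its 525 nt in the ssRNase lists, against 33.9%, 36.0% and 25.1% in the dsRNase lists. The ssRNase replicate 1 list lay far above all others, the other 2 ssRNase lists lay below every dsRNase list, and the groups thus overlapped (two-sided exact permutation p = 1.0). The mean was 44.1% ± 40.6 with ssRNase, against 31.7% ± 5.76 with dsRNase (SD, n = 3 each). Without ssRNase replicate 1 the ssRNase mean was 20.7%, below the dsRNase mean. Of all light-strand bases in a list, ND6 took 4.67% ± 1.69 with ssRNase, against 4.64% ± 0.979 with dsRNase (SD, n = 3 each), at a two-sided exact permutation p = 1.0.

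Within ND6 the places that recurred were different ones. The 3 ssRNase lists shared 1 stretch there, chrM:14218-14248, towards the 3′ end of the mRNA, and no dsRNase list held a base of it. It came from the ssRNase sites 14213 to 14257, 14218 to 14252 and 14216 to 14248, of which the first, in replicate 1, scored above 96.6% of the sites of its list, the second, in replicate 2, above 42.8%, and the third, in replicate 3, above 88.5%. The 3 dsRNase lists shared 6 stretches that touched ND6. The longest, chrM:14656-14720, had 65 nt and ran across the junction of MT-TE and ND6, whose first bases are printed above. It came from the dsRNase sites 14656 to 14720, 14640 to 14724 and 14642 to 14720. The next, chrM:14162-14199, had 38 nt near the 3′ end of ND6, and its dsRNase replicate 3 site, 14162 to 14210, had a score of 2138, the highest of any light-strand site in that list. The other 4 were 20, 19, 7 and 2 nt long. In each of these 6 stretches at least 1 ssRNase list had a base, which says little, since ssRNase replicate 1 alone covered 90.9% of ND6. It was the only ssRNase list in the stretches of 20, 19 and 7 nt. The part of the longest stretch inside MT-TE held no ssRNase base in any list. The authors' list merged over both nucleases held 6 sites that touched ND6, and none of them drew on all 6 lists.

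**Figure D2:**
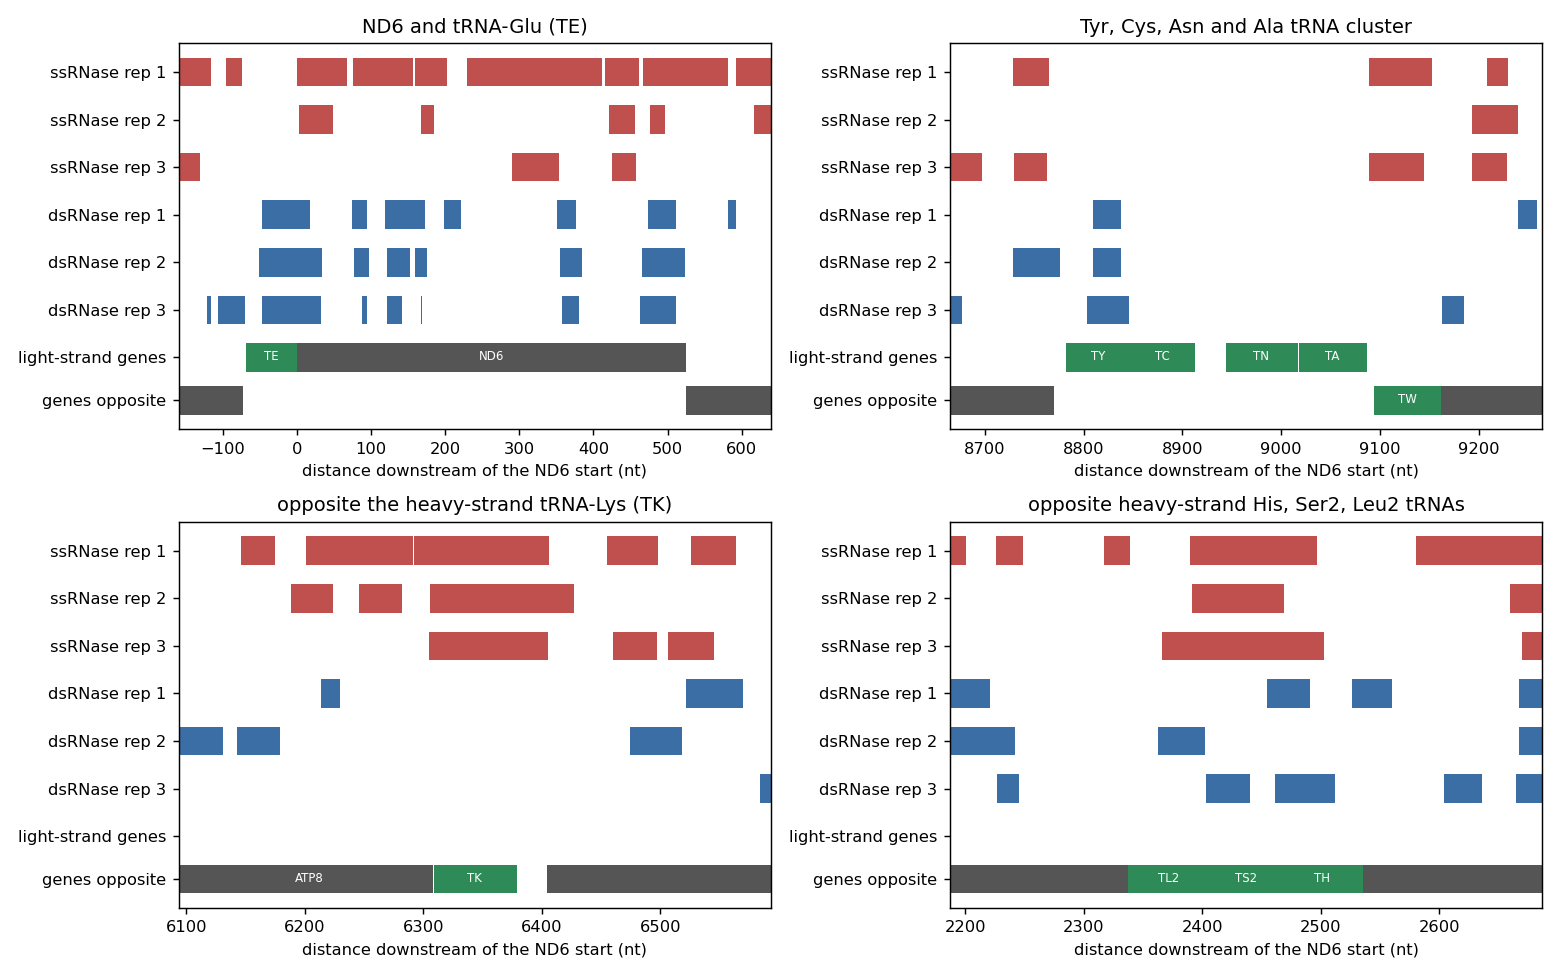
Sites by list (bars; ssRNase red, dsRNase blue) around ND6 and MT-TE, the tyrosine, cysteine, asparagine and alanine tRNA cluster, the antisense of MT-TK, and the antisense of MT-TH, MT-TS2 and MT-TL2; the x axis is the distance in nt downstream of the ND6 start. The ssRNase lists leave all light-strand tRNA genes free and cover all 70 nt opposite MT-TK in each of the 3 lists, while the dsRNase lists have sites in MT-TE and MT-TY and none opposite MT-TK.

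The light-strand tRNA genes separated the nucleases. No base of any of the 8 genes lay in an ssRNase site, in any of the 3 lists, although ssRNase sites covered 45.4%, 15.4% and 19.7% of the whole strand. With dsRNase 16.0%, 16.3% and 16.3% of their summed length was covered. In each dsRNase list this too lay below the coverage of the whole strand, which was 19.3%, 24.04% and 22.1%. The difference in tRNA gene coverage was -16.2 percentage points, ssRNase minus dsRNase (two-sided exact permutation p = 0.1). It was -15.8 points with the gene intervals moved by 2 nt, still with no ssRNase base. As a share of all light-strand bases, the tRNA genes held 0% with ssRNase, against 2.49% ± 0.246 with dsRNase (SD, n = 3 each).

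The dsRNase bases were concentrated on 2 of the 8 tRNAs. MT-TE was covered for 68.1%, 73.9% and 68.1% of its length and MT-TY for 43.9%, 43.9% and 65.2%, each at the same place in all 3 dsRNase lists. The MT-TY sites were 5836 to 5864 in replicates 1 and 2 and 5828 to 5870 in replicate 3. MT-TQ, the glutamine tRNA, had 10 bases in dsRNase replicate 2 alone, and MT-TP, the proline tRNA, had 12 bases in dsRNase replicate 1 alone. MT-TA, MT-TN, MT-TC and MT-TS1 had none with either nuclease. The gaps between the nearest ssRNase sites were 239, 302 and 680 nt around MT-TQ and 274, 407 and 403 nt around MT-TS1. With dsRNase the gaps around MT-TS1, which was also empty, were 423, 500 and 299 nt. At positions above MT-TP, ssRNase replicates 2 and 3 had no site. Around the alanine to tyrosine cluster the nearest ssRNase sites ended at 5584 and started again at 5909 in replicate 1, and at 5584 and 5911 in replicate 3. In replicate 2 the gap ran from 5480 to 6017. Around MT-TE, ssRNase replicate 1 had sites ending at 14673 and starting at 14748, a gap of 74 nt. The gaps there were 844 nt in ssRNase replicate 2 and 421 nt in replicate 3.

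Summed over all tRNAs, the antisense showed the opposite order, which rested on MT-TK and MT-TS2. Over the sequence opposite the 14 heavy-strand tRNAs, ssRNase sites covered 31.6%, 20.3% and 32.5% and dsRNase sites 11.4%, 10.1% and 10.3%, without overlap (two-sided exact permutation p = 0.1). The 2 longest stretches common to all 3 ssRNase lists both lay opposite tRNAs. The first, chrM:8269-8367, was 99 nt long and held the whole antisense of MT-TK, and no dsRNase list had a base of it. The ssRNase sites behind it were 8268 to 8381, 8247 to 8367 and 8269 to 8368. The second, chrM:12205-12282, was 78 nt long and lay opposite the neighbouring MT-TH, MT-TS2 and MT-TL2, the tRNAs for histidine, serine and leucine. The antisense of MT-TS2 was covered for 100% in each ssRNase list, against 20.3%, 0% and 64.4% in the dsRNase lists. Leaving these 2 tRNAs aside, a choice made after seeing the data, the other 12 were covered for 20.9%, 7.77% and 22.0% with ssRNase, against 11.8%, 11.7% and 7.28% with dsRNase, and the groups overlapped (two-sided exact permutation p = 0.3). Taken one by one, 6 of the 14 antisense intervals had a higher mean with ssRNase, 3 had a higher mean with dsRNase and 5 were empty in all lists. The 3 with the higher dsRNase mean lay opposite MT-TG, at 8.82% with ssRNase, against 28.4% with dsRNase, MT-TT, at 0% with ssRNase, against 23.7% with dsRNase, and MT-TH, at 32.9% with ssRNase, against 38.2% with dsRNase. With ssRNase 8 of the 14 antisense intervals held bases in some list and 4 in all 3 lists, and with dsRNase 6 did in some list and none in all 3.

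On the plus strand, where the tRNA roles are exchanged, sense tRNA was again covered with dsRNase, while the antisense of tRNA did not separate the nucleases. Sense sequence of the 14 heavy-strand tRNAs was covered for 0.105%, 0% and 0% with ssRNase, against 11.6%, 21.5% and 12.1% with dsRNase. MT-TV, the valine tRNA, which lies between the rRNAs, was covered for 99.5% with dsRNase. Leaving it aside, also chosen after seeing the data, the values were 0.113%, 0% and 0% with ssRNase, against 4.86%, 15.4% and 5.20% with dsRNase (two-sided exact permutation p = 0.1). Plus-strand sequence opposite the 8 light-strand tRNAs was covered for 36.8%, 14.5% and 40.5% with ssRNase, against 12.7%, 26.3% and 10.9% with dsRNase, which overlapped (two-sided exact permutation p = 0.2). Of these 8 intervals 5 had a higher mean with ssRNase, 2 had a higher mean with dsRNase and 1 was empty. Opposite MT-TE the mean was 97.1% ± 5.02 with ssRNase, against 11.1% ± 19.2 with dsRNase (SD, n = 3 each). It carried most of the difference, since the other 7 had means of 21.1% ± 15.4 with ssRNase, against 17.4% ± 6.91 with dsRNase (SD, n = 3 each), at a two-sided exact permutation p = 0.8. Opposite MT-TA and MT-TN the means were 0% with ssRNase, against 25.1% and 15.1% with dsRNase. The ssRNase sites covered only 5.42% ± 2.57 of the whole plus strand and the dsRNase sites 37.1% ± 6.4 (SD, n = 3 each). The files hold no read counts for the digestion controls, so how much tRNA survived without protein was not tested.

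**Figure D3:**
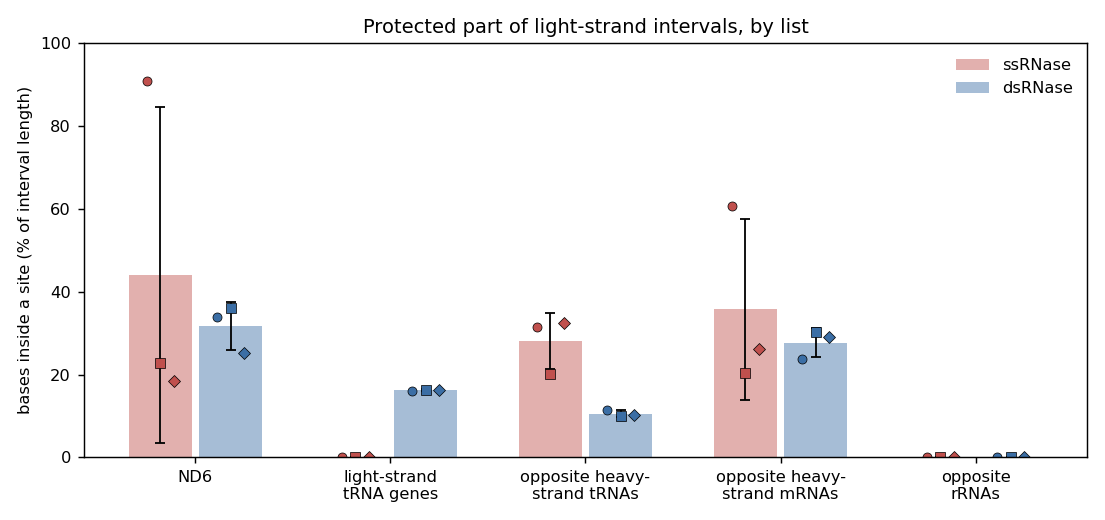
Percentage of each kind of light-strand interval that lies in a site (y axis), as the mean of 3 lists (bars) with SD (error bars) and single lists (circle replicate 1, square replicate 2, diamond replicate 3). The ssRNase lists have 0% in light-strand tRNA genes and 20.3% to 32.5% opposite heavy-strand tRNAs, and ND6 in ssRNase replicate 1 stands apart at 90.9%.

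Antisense sequence is 86.7% of the light strand by length, and its share of the protected bases lay above that figure in all 3 ssRNase lists and around it in the dsRNase lists. It held 91.8%, 95.0% and 96.8% of light-strand bases in the ssRNase lists, against 83.8%, 84.8% and 89.0% in the dsRNase lists, without overlap (two-sided exact permutation p = 0.1). The shares of antisense, ND6, tRNA genes and control region make up one whole, so this difference is not separate from theirs. The part of antisense sequence covered was 28.97% ± 16.7 with ssRNase, against 21.6% ± 2.58 with dsRNase (SD, n = 3 each), and these overlapped (two-sided exact permutation p = 0.9). All 12 intervals opposite a heavy-strand mRNA held bases in each of the 3 ssRNase lists, and 10 of them in each of the 3 dsRNase lists. Their mean coverage ran from 18.6% to 53.1% with ssRNase, against 13.2% to 42.4% with dsRNase. Opposite MT-CO1, which encodes a subunit of cytochrome c oxidase, sites covered 76.1%, 30.9% and 52.5% with ssRNase, against 10.2%, 15.2% and 21.2% with dsRNase, without overlap (two-sided exact permutation p = 0.1). Opposite MT-CYB, which encodes cytochrome b, the values were 53.1%, 2.28% and 10.7% with ssRNase, against 25.5%, 41.1% and 26.2% with dsRNase, and they overlapped. Opposite MT-ND5, a large complex I subunit, the means were 36.6% ± 24.4 with ssRNase, against 42.4% ± 6.64 with dsRNase (SD, n = 3 each). ND6 exceeded the antisense coverage by 42.8 and 6.02 percentage points in ssRNase replicates 1 and 2 and fell short of it, at -3.54 points, in replicate 3. In the dsRNase lists ND6 exceeded it by 15.2, 12.5 and 2.49 points. This antisense coverage includes the sequence opposite the rRNAs, which held no site. Opposite the mRNAs alone, sites covered 60.8%, 20.3% and 26.1% with ssRNase, against 23.8%, 30.3% and 29.1% with dsRNase. The ND6 coverage lay above these values in replicates 1 and 2 of each nuclease and below them in replicate 3 of each. The antisense of both rRNAs was empty in all 6 lists. No minus-strand site lay between 410 and 3253, a run of 2842 positions, whereas plus-strand sites covered 20.9% ± 6.03 of the same rRNA intervals with ssRNase, against 94.7% ± 0.818 with dsRNase (SD, n = 3 each).

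The control region, where light-strand transcription starts, was covered chiefly with dsRNase. It held 140, 6 and 6 bases in the ssRNase lists, against 252, 327 and 180 in the dsRNase lists, which did not overlap (two-sided exact permutation p = 0.1). That was 1.86%, 0.236% and 0.184% of light-strand bases with ssRNase and 7.87%, 8.21% and 4.92% with dsRNase. All 3 dsRNase lists had sites at 2 places, the first at 16328 to 16374, 16320 to 16375 and, in replicate 3 as a pair, 16327 to 16351 and 16363 to 16375. The second was at 16478 to 16518, 16487 to 16552 and 16484 to 16560. The dsRNase replicates 1 and 2 shared sites at 123 to 205 and 102 to 207, at 254 to 289 and 250 to 292, and at 396 to 410 and 390 to 409. In replicate 3 these 3 places were empty.

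The balance between the nucleases varied along the transcript. In windows of 1000 bp, each list was described by the share of its light-strand bases, which does not depend on the length of the list. The window from 6001 to 7000, which lies opposite MT-CO1, took 13.0% ± 3.47 with ssRNase, against 5.17% ± 2.13 with dsRNase (SD, n = 3 each). The windows from 7001 to 8000 and from 8001 to 9000 also had all 3 ssRNase lists above all dsRNase lists, at means of 8.88% and 8.35% with ssRNase and 3.31% and 3.53% with dsRNase. Elsewhere the order was turned. The window from 13001 to 14000 took 8.03% ± 0.971 with ssRNase, against 10.9% ± 0.949 with dsRNase, and that from 16001 on took 0.434% ± 0.752 with ssRNase, against 3.81% ± 0.144 with dsRNase (SD, n = 3 each). These 2, with the windows from 12001 to 13000 and from 1 to 1000, were the ones in which every dsRNase list lay above every ssRNase list. Of the 17 windows, 2 opposite the rRNAs held no site, and 15 had sites in at least 3 lists. In plain bases 3 of these 15 had all ssRNase lists above all dsRNase lists, against 61.9% of all windows of the genome under the same filter, and 1 of 15 had the reverse, against 1.11%.

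**Figure D4:**
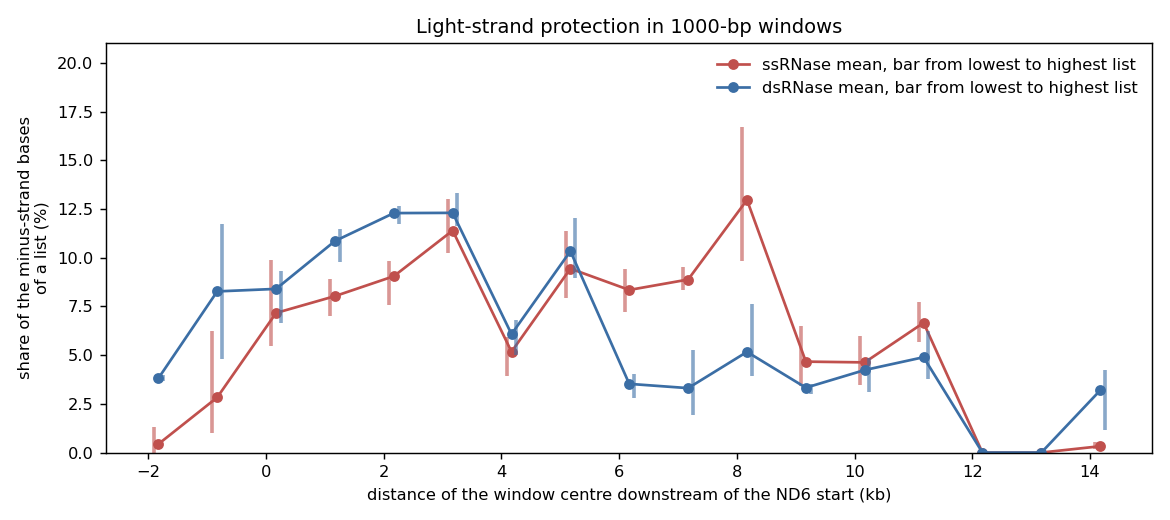
Share of the minus-strand mitochondrial bases of a list in each 1000-bp window (y axis, %), against the distance of the window's centre downstream of the ND6 start (x axis, kb); points are means of 3 lists and vertical bars run from the lowest to the highest list. The ssRNase lists peak at 13.0% in the window opposite MT-CO1, the dsRNase lists lie higher in the windows from 12001 to 14000 and in the control region, and the last point at the right is the part of the control region that adjoins the left end of the circle.

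Scaled to the whole list, the same windows were mostly higher with dsRNase. The bases in sites, scaled to 1000000 for each list, were tested in all 51462 stranded 1000-bp windows of the genome with a site in at least 3 lists. Of the 15 light-strand windows tested, 13 passed a limma adjusted p of 0.05 and all 13 were higher with dsRNase. Over the genome 26% of windows passed, 7.56% in that direction and 18.5% in the other. The largest difference was in the window from 15001 to 16000, with 19.99 ± 22.7 bases per 1000000 with ssRNase, against 339.7 ± 130 with dsRNase (SD, n = 3 each), a difference of -3.25 on the log2(value + 20) scale, ssRNase minus dsRNase (SE 0.459, limma adjusted p = 0.0105). The 2 windows that did not pass were those from 6001 to 7000 (-1.16, limma adjusted p = 0.0586) and from 7001 to 8000 (-0.94, limma adjusted p = 0.136). When ssRNase replicate 1, 2 or 3 was left out, 3, 0 and 0 of the 15 light-strand windows passed. Over the genome 159 of 20848, 61 of 28509 and 83 of 21772 tested windows then passed. Of the light-strand windows, 12, 14 and 12 had an unadjusted limma p below 0.05 in these fits. The window differences are shares of lists of very unequal length and are no measure of how many light-strand bases were protected.

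Lists of one nuclease shared more of their bases, on average, than lists of different nucleases. Of the light-strand bases of one ssRNase list, another ssRNase list covered on average 62.1% (31.1% to 92.1% over the pairs), and a single ssRNase list covered 15.4% to 45.4% of the strand. Between dsRNase lists the average was 54.3% (47.2% to 63.5%), and a single dsRNase list covered 19.3% to 24.04% of the strand. A dsRNase list covered on average 29.7% of the bases of an ssRNase list (23.1% to 37.8%), and an ssRNase list covered 36.4% of those of a dsRNase list (16.99% to 61.3%). By sites, 61.8%, 93.0% and 95.5% of the light-strand sites of an ssRNase list met a site of another ssRNase list, against 80.2%, 76.7% and 76.0% among the dsRNase lists (two-sided exact permutation p = 0.6). Pairs share lists, so these averages carry no test. All 3 ssRNase lists shared 1674 bases in 43 stretches and all 3 dsRNase lists shared 1353 bases in 50 stretches. Of the 1674 bases, 707 were in no dsRNase list, and of the 1353 bases 410 were in no ssRNase list.

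Only 244 bases, in 13 stretches, lay in sites of all 6 lists, and each of these stretches was antisense. The longest was chrM:3698-3734, 37 nt opposite MT-ND1, a complex I subunit. The next were chrM:12820-12855, 36 nt opposite MT-ND5, and chrM:6383-6415, 33 nt opposite MT-CO1. In the authors' list merged over both nucleases the light strand had 122 sites, 27 of which drew on ssRNase lists alone, 32 on dsRNase lists alone and 63 on both. Of the 122, 19 drew on all 6 lists, with a median length of 208 nt, against 27.5 nt for merged sites from 1 list. The 5 longest of these were 11479 to 11842 opposite MT-ND4, 6252 to 6610 and 6984 to 7314 opposite MT-CO1, 13101 to 13414 opposite MT-ND5, and 9064 to 9376 opposite MT-ATP6 and MT-CO3. The longest single ssRNase site was 6252 to 6551, 300 nt in replicate 1, opposite MT-CO1, followed by 9146 to 9376 and 12884 to 13086, also in replicate 1. The longest single dsRNase site was 15002 to 15152, 151 nt in replicate 2, opposite MT-CYB, followed by 11562 to 11687 opposite MT-ND4 and 13463 to 13586 opposite MT-ND5.

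The authors' score, whose scale is not given, served only for ranks within a list. Light-strand sites ranked on average above 66.3% ± 8.23 of the sites of an ssRNase list and above 64.7% ± 5.07 of those of a dsRNase list (SD, n = 3 each), at a two-sided exact permutation p = 0.9. The highest-ranking ssRNase site, 3882 to 3949 in replicate 1 opposite MT-ND1, had a score of 2925, and ssRNase sites at 3881 to 3941 and 3878 to 3946 lay at the same place in replicates 2 and 3. The highest-ranking dsRNase site, 15540 to 15634 in replicate 2 opposite MT-CYB, had a score of 1221.

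Sites facing each other on both strands were seen mainly with dsRNase. Of the light-strand bases of a list, 2.67%, 0% and 0.52% also lay in a plus-strand site of that list with ssRNase, against 27.5%, 36.8% and 35.0% with dsRNase (two-sided exact permutation p = 0.1). The plus strand itself was covered for 5.42% with ssRNase and 37.1% with dsRNase. That coverage includes the rRNA intervals, covered for 94.7% with dsRNase on the plus strand, opposite which no light-strand site lay. Over the intervals of the 12 heavy-strand mRNAs, plus-strand sites covered 1.66% ± 1.80 with ssRNase, against 32.1% ± 8.88 with dsRNase (SD, n = 3 each). Whether facing sites exceeded the plus-strand coverage of the places where light-strand sites lie was not tested. In base composition the ND6 mRNA and the antisense RNA are both rich in G and poor in C. ND6 had 35.6% G and 7.05% C, and the sequence opposite the 12 heavy-strand mRNAs had 33.1% G and 11.98% C. The 8 light-strand tRNAs had 28.6% G and 14.3% C.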

How the data were processed

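The submitters' processing notes name cutadapt 0.9.5, TopHat2 2.0.9 and build hg19, and the labels' protocols name a library normalisation with duplex-specific nuclease. The names of the deposited lists give CSAR and a 5% false discovery rate. The lists hold positions and a score per site, deposited by the authors with no scale given. They hold no read counts, so the depth is unknown. The end positions of merged sites are also the authors'. Positions were read as 1-based and inclusive.

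Bases were assigned to genes of GENCODE release 29 (GRCh38 numbering), since no hg19 annotation was used here, and no gene coordinates are printed. The control region is the part outside the outermost genes, and all other sequence outside light-strand genes counted as antisense. Names followed a fixed rule: all genes, the 3 longest sites and the best site per nuclease, and the longest shared and merged stretches. Sites shown beside them were chosen after their values were seen. Lists were compared by a two-sided exact permutation test. For windows, limma 3.58.1 (R 4.3.3) was fitted to log2(site bases per 1000000 + 20), with Benjamini-Hochberg adjustment over all windows, after a check on simulated data. The simulated lists had equal noise, and only windows with sites in all 6 lists were changed. The check therefore does not speak for lists that vary unequally. The rest was done in Python 3.11.15 with pandas 2.3.3, numpy 2.4.6 and matplotlib 3.10.9. The members and comparisons were chosen with earlier results of these data known. Alternatives were each list left out, a replicate block, other filters, pseudocounts, window sizes and scaling, the better-scoring sites, and intervals moved by 2 nt; the tRNA contrast between strands was added after seeing the data.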

Additional observations from a re-analysis of the deposited data

Results flagged for a closer look

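The coverage of light-strand tRNA genes minus the coverage of the sequence opposite heavy-strand tRNAs was below 0 in all 3 ssRNase lists, with a mean of -28.1 percentage points, and above 0 in all 3 dsRNase lists, with a mean of 5.61 points. Leaving MT-TK and MT-TS2 aside, the means were -16.9 points with ssRNase and 5.98 points with dsRNase. The nucleases thus lay on opposite sides, which is why the contrast stands here. The ssRNase values could not lie above 0, since ssRNase sites covered 0% of the light-strand tRNA genes. The dsRNase sign rested on MT-TE and MT-TY. Outside them the light-strand tRNA genes held only 12 dsRNase bases, in MT-TP in replicate 1, and 10, in MT-TQ in replicate 2. The contrast was chosen after the values were seen, and 3 lists against 3 cannot give a two-sided exact permutation p below the 0.1 it reached.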

How the results depend on the processing

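All differences here are ssRNase minus dsRNase, and the cause of a change was not tested. Of 16 results, 1 is the count of windows below and 15 are differences, of which 8 kept their direction under all alternatives run. Among them were the tRNA, antisense and control-region shares, the median length and the share of the list. The tRNA, antisense and control-region shares are parts of one whole and not separate results. For these 8 the two-sided exact permutation p cannot fall below 0.1 and says nothing of stability. Leaving out single lists gave -708.3 to 1781 bases, -0.795 to 0.89 percentage points for the ND6 share, -11.0 to 25.2 for ND6 coverage, -2.19 to 13.4 for antisense coverage, -8.83 to 14.3 for ND6 minus antisense coverage, -2.19 to 5.98 for the score rank and -13.6 to 22.1 for the share of sites that recur within a nuclease (5.77 as reported with all lists). The ND6 share, 0.0374 points as reported, also turned with the better-scoring 50% of sites (-0.777), with intervals moved by 2 nt (-0.0189) and by number of sites (-0.762).

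The 13 light-strand windows past the limma threshold became 8 of 9 with 2000-bp windows and 0 with a replicate block (14 had an unadjusted limma p below 0.05). Over the genome 13270 of 46025 windows passed with 2000-bp windows and 0 of 51462 with the replicate block. Leaving out single lists gave 0 to 12 light-strand windows. In the other results the replicate block left the difference as it was, with sign-flip p no lower than 0.25. Deviations of same-numbered lists correlated at 0.00629, -0.0411 and -0.0328, and no ssRNase list matched the dsRNase list of its own number best. These values show no sign of pairs, but they cannot settle whether same-numbered libraries shared a culture or batch. The median over all tested windows was 0.26 on the log2 scale and 0.48 when scaled to minus-strand bases. Read depth, unknown here, limits how far an empty interval can be read.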
